A study of Homo sapiens with 18 samples.

Results

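The Ran cycle and the main nuclear transport receptors were followed through 10 genes, RAN, RANBP1, RCC1, RANGAP1, XPO1, KPNA2, KPNB1, CSE1L, NUTF2 and TNPO1, out of 38716 gene symbols in the tables. The genes were taken for their place in this pathway, with earlier results of these data known, and RANBP1 was selected on its measured ratio of ribosome footprints to mRNA in old cells, so that every RANBP1 value below is a description without a test and counts of called genes are over the other 9. Ribosome profiling (Ribo-seq, sequencing of the mRNA fragments that ribosomes protect) and poly(A) mRNA-seq were performed on IMR90, a fetal human lung fibroblast line of finite lifespan. Young cells were proliferating at low passage, old cells had reached replicative senescence by serial passaging, and ICM cells were proliferating cells given inflachromene, an inhibitor directed at the HMGB1 and HMGB2 chromatin proteins, for 6 days per the study's text. Each of the 6 groups held 3 replicates, grown separately, and each lysate supplied both a Ribo-seq and an mRNA-seq library. No genotype differed between the groups, all of which are the same cell line. The study's results describe replicative senescence data as generated earlier than the ICM data, whereas its Ribo-seq methods list young, senescent and ICM cells together. Whether these old libraries were prepared at the same time as the others was not given, so that a difference in preparation and the difference in passage cannot be told apart.

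Ran is a small GTPase whose GTP-bound form is made in the nucleus by RCC1, the chromatin-bound exchange factor, and is hydrolysed in the cytoplasm with RANGAP1, the GTPase-activating protein, and RANBP1, which helps to release Ran from transport receptors. Importins such as KPNB1, with its adaptor KPNA2, and TNPO1 carry proteins inward and let go of them when they meet Ran-GTP, whereas the exportins XPO1 and CSE1L bind cargo together with Ran-GTP. NUTF2 brings Ran back into the nucleus. In dividing cells the same Ran-GTP releases spindle assembly factors from importins around the chromosomes.

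Levels are CPM, counts in each 1000000 reads with library sizes scaled by the TMM method. They are relative to the other genes of a library and do not give amounts per cell. The scaling holds the typical change near 0, so a change shared by all mRNAs would not show. Reads in the 5′ UTR, CDS and 3′ UTR were used for mRNA-seq, and CDS reads only for Ribo-seq. Changes are log2 differences with standard errors (SE), tested two-sidedly with edgeR over all genes, and a gene was called when the Benjamini-Hochberg adjusted p was under 0.05. All 10 genes passed the filter on low counts in mRNA-seq, among 13173 genes tested. In Ribo-seq 9 passed, among 4643 genes, and RCC1 did not. The comparisons share samples, since each condition enters 2 of the 3 comparisons, so their results are not independent of each other.

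Ribo-seq depth set the precision. The mRNA-seq libraries held 7902427 to 14144455 reads in coding genes, whereas CDS footprints per Ribo-seq library ran from 46239 (ICM replicate 3) to 1718521 (young replicate 3). Young replicate 1 and old replicate 2 had only 34.4% and 15.0% of their Ribo-seq reads in the CDS, against 54.7% to 88.8% in the other 7 libraries. Of 8 genes that were at 50 CPM or more in young mRNA and at 1 CPM or less in ICM mRNA, ICM replicate 3 held 388 footprint CPM in sum, against 9.85 and 123 in ICM replicates 1 and 2 and 898 to 1050 in young. These sums rest on few reads, since 3 reads equal 14.8, 40.9 and 68.5 CPM in ICM replicates 1, 2 and 3. For 3 genes high in ICM mRNA, the ICM libraries held 838, 491 and 411 footprint CPM in sum, and the young ones 59.4, 4.79 and 5.73. Footprint results are also given without the 3 lysates of young replicate 1, old replicate 2 and ICM replicate 3. All 10 fibroblast markers examined exceeded 5 CPM on average in each condition, and no epithelial or leukocyte marker did. The summed level of the fibroblast markers was 34585 to 39243 CPM in the young libraries, 31872 to 37162 in old and 14525 to 15115 in ICM. Of 5 endothelial markers 1 exceeded 5 CPM in each condition, with a summed level of 55.3 to 63.6 CPM in young, 94.9 to 107 in old and 51.8 to 60.3 in ICM, and CDH5 had 0 reads in all 9 mRNA-seq libraries. The part of these markers in the results was not tested.

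**Figure D1:**
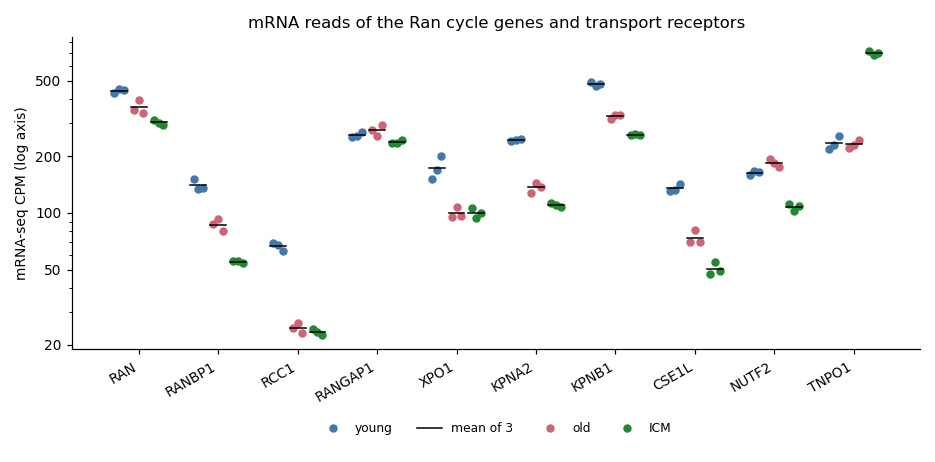
mRNA-seq CPM on a log axis for the 10 genes in the 9 mRNA-seq libraries, with points for replicates and a line for the mean of 3. For 7 of the genes, RANBP1 included, the 3 young libraries lie above all ICM and all old libraries. The share of all genes with such a separation was not counted. For TNPO1 the ICM libraries, at 686 to 717 CPM, lie far above the rest.

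In ICM cells the mRNAs of most of the pathway were lower than in young cells, and TNPO1 mRNA was 3-fold higher. In bulk samples, fewer cells with a transcript and less of it per cell cannot be told apart. Of the 9 tested genes, 7 fell, 1 rose and RANGAP1 was not called. Across all tested genes 36.1% were called lower and 34.9% higher. The median log2 change was -0.80 for the 9 genes and -0.01 over all genes. In old cells 6 of the 9 fell (33.7% of all genes), 1 rose (32.4%), and RANGAP1 and TNPO1 were not called, with a median of -0.57 against -0.01 over all genes.

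RAN itself remained the most abundant of these mRNAs per length. Its CDS reads per kilobase, scaled as CPM, numbered 744 ± 27.0 (SD, n = 3) in young cells, 637 ± 50.2 in old cells and 496 ± 21.4 in ICM cells, and no other of the 10 genes overlapped it in any condition. Summed over the transcript, RAN was at 431, 453 and 449 CPM in the young libraries, 353, 396 and 340 in old, and 309, 301 and 294 in ICM. The 3 groups did not overlap. The log2 change of RAN was -0.56 in ICM (SE 0.06, edgeR adjusted p = 6.6e-08) and -0.29 in old (SE 0.06, adjusted p = 0.000399).

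RCC1, which loads Ran with GTP on chromatin, showed the largest fitted fall of the 9 in both comparisons with young. Its mRNA was at 69.0, 67.8 and 62.9 CPM in young, 24.7, 26.1 and 23.2 in old and 24.4, 23.5 and 22.6 in ICM. Both arrested states were thus at much the same level, far under young. The log2 change was -1.50 in ICM (SE 0.08, edgeR adjusted p = 5.51e-14) and -1.43 in old (SE 0.08, adjusted p = 3.08e-13), and ICM and old differed by -0.07 (SE 0.08, adjusted p = 0.474), with an interval of 2 SE on either side from -0.24 to 0.10. RCC1 shares 242 exon bases with SNHG3, a snoRNA host gene on the same strand, and reads there could count for either gene. Per length it was the least abundant of the 10 genes in mRNA-seq in every condition.

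RANGAP1, which triggers GTP hydrolysis on Ran, was not called against young in either state. It was at 251, 256 and 269 CPM in young, 275, 256 and 292 in old, and 235, 234 and 242 in ICM. Its ICM libraries lay under all young libraries, but the log2 change of -0.13 (SE 0.06) was not called (edgeR adjusted p = 0.0739). It was called with CDS reads only (-0.19, adjusted p = 0.021), in a fit of the compared groups alone (-0.12, adjusted p = 0.045) and without the 3 lysates described above (-0.16, adjusted p = 0.0465). Old and young overlapped, with a difference of 0.09 (SE 0.06, adjusted p = 0.235). Between the arrested states RANGAP1 was lower in ICM, by a log2 change of -0.21 (SE 0.06, adjusted p = 0.00509).

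RANBP1 mRNA was 151, 134 and 135 CPM in young, 87.1, 92.7 and 80.1 in old, and 55.9, 55.4 and 54.3 in ICM. The 3 groups stood in this order without overlap. The fitted log2 change was -0.69 (SE 0.07) in old and -1.34 (SE 0.07) in ICM, both against young. RANBP1 lies close to CSE1L in this pattern: over the 9 mRNA-seq libraries their centred log2 values differed by a root mean square of 0.118, less than for any other pair of the 10 genes. Among the 7531 genes averaging 20 CPM or more, those with the pattern nearest to RANBP1 were RPL14 (0.0503), a ribosomal protein gene, DNAJC9 (0.0732), a histone chaperone gene, and XPO5 (0.0764), which exports precursor microRNAs.

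Both exportins fell. CSE1L, which returns KPNA2 and its relatives to the cytoplasm, was at 131, 132 and 143 CPM in young, 70.2, 81.6 and 69.8 in old and 47.7, 55.0 and 49.0 in ICM. Its 3 groups were separate, and the log2 changes were -1.42 in ICM (SE 0.07, edgeR adjusted p = 1.1e-13) and -0.87 in old (SE 0.07, adjusted p = 6.01e-10). XPO1, the exporter of proteins with leucine-rich export signals, was at 152, 169 and 200 CPM in young. It was at 95.6, 107 and 96.9 in old, and at 106, 94.3 and 100 in ICM. XPO1 fell in both states, with a log2 change of -0.80 in each (SE 0.08, adjusted p = 1.25e-08 in ICM and 1.74e-08 in old), and the difference between ICM and old was 0.00, with an interval of 2 SE on either side from -0.16 to 0.17.

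Of the classical import pair, the adaptor KPNA2 had larger fitted falls than its carrier KPNB1. KPNA2 was at 239, 243 and 246 CPM in young, 128, 144 and 138 in old and 113, 110 and 107 in ICM. KPNB1 was at 492, 472 and 483 CPM in young, 314, 331 and 330 in old and 260, 261 and 258 in ICM. In both genes the order was young, old, ICM, with no overlap. The log2 change in ICM was -1.14 for KPNA2 (SE 0.06, edgeR adjusted p = 1.74e-13) and -0.89 for KPNB1 (SE 0.06, adjusted p = 4.21e-12). In old cells the log2 changes were -0.83 (SE 0.06, adjusted p = 7.38e-11) for KPNA2 and -0.57 (SE 0.06, adjusted p = 1.16e-08) for KPNB1. The difference between the 2 genes was not tested. The patterns nearest to KPNA2 were those of HSPD1 (root mean square 0.0582), a mitochondrial chaperone, H3F3B (0.0584), a replication-independent histone H3.3 gene, and RBM12 (0.0635), an RNA-binding protein gene.

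NUTF2, the carrier of Ran-GDP, was the one gene of the 9 whose mRNA was called lower in ICM and higher in old. It was at 158, 166 and 165 CPM in young, 193, 185 and 176 in old and 111, 103 and 109 in ICM. The log2 change was -0.60 in ICM (SE 0.06, edgeR adjusted p = 1.22e-08) and 0.18 in old (SE 0.06, adjusted p = 0.0122). The rise in old is small, and it was not called without old replicate 1 (log2 change 0.15, adjusted p = 0.0637) or with CDS reads only (0.07, adjusted p = 0.359). Set directly against old, ICM was lower by a log2 change of -0.78 (SE 0.06, adjusted p = 1.88e-10).

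TNPO1, transportin 1, which imports mRNA-binding proteins such as hnRNP A1, went the other way. It was at 218, 228 and 257 CPM in young, 222, 230 and 242 in old and 717, 686 and 703 in ICM. Young and old overlapped, and the lowest ICM library stood far above the highest of either. The log2 change in ICM was 1.58 against young (SE 0.07, edgeR adjusted p = 2.37e-15) and 1.60 against old (SE 0.07, adjusted p = 2.49e-15), and old differed from young by -0.02, with an interval of 2 SE on either side from -0.15 to 0.12. In CDS reads per length, TNPO1 was the seventh of the 10 genes in young (81.7 ± 2.04 CPM per kilobase) and old (80.5 ± 4.41) and the second in ICM (261 ± 1.94), above NUTF2 at 219 ± 6.94 (SD, n = 3). In the nearest patterns no other of the 10 genes resembled it: the closest, RANGAP1, differed by a root mean square of 0.833.

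Set against old cells, ICM cells had lower mRNA for 6 of the 9 genes (32.6% of all genes), higher for TNPO1 (30.7%), and no call for RCC1 and XPO1.

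RefSeq promoters (GRCh38.p14) were read for 8 of the 10 genes, all but RANBP1 and KPNB1. The 250 bases before the first start are shown for the falling pair KPNA2 and CSE1L and for TNPO1, which rose in ICM. Capitals mark the motifs searched on both strands: the CCAAT box (CCAAT, or ATTGG when read on the other strand), the cell cycle element CHR (TTTGAA) with its variant TTCGAA, and the E-box CACGTG. Each stands on the + strand, KPNA2 at chr17:68035485-68035734, CSE1L at chr20:49046062-49046311 and TNPO1 at chr5:72816411-72816660.
KPNA2: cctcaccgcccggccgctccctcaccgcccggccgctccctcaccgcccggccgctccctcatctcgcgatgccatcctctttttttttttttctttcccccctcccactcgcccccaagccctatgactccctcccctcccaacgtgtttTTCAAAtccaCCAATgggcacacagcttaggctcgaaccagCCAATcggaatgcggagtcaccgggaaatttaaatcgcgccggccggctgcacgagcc
CSE1L: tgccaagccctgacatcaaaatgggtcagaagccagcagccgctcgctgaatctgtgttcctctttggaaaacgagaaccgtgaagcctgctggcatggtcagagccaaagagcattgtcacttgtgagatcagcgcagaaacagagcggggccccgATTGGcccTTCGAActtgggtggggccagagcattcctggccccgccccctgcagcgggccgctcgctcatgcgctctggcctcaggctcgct
TNPO1: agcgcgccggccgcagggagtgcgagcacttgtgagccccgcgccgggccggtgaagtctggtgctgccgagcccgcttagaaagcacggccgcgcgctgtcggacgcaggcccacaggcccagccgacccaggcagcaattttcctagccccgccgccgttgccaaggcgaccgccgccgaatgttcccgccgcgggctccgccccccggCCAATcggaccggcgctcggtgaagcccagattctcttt

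KPNA2 held CCAAT at 58 and 89 bases before the start and the CHR letters on the other strand at 99, CSE1L held the CHR variant at 85 and a CCAAT box on the other strand at 93, and TNPO1 held CCAAT at 39. XPO1 also had CCAAT at 32 and 75 bases before its first start and an E-box at 44 before its second. RAN held an E-box at 102. RCC1, with the largest fall, held no searched motif before its first start and an E-box at 190 before its second. NUTF2, which fell in ICM, held none before either start. RANGAP1, not called against young, held the CHR letters on the other strand at 29 before its second start. Whether any motif goes with the falls was not tested. Among 35116 windows of this length, CCAAT occurred in 32.0%, TTTGAA in 13.3%, CACGTG in 6.34% and TTCGAA in 1.19%. Of the 13 member windows, these were found in 4, 2, 3 and 1.

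**Figure D2:**
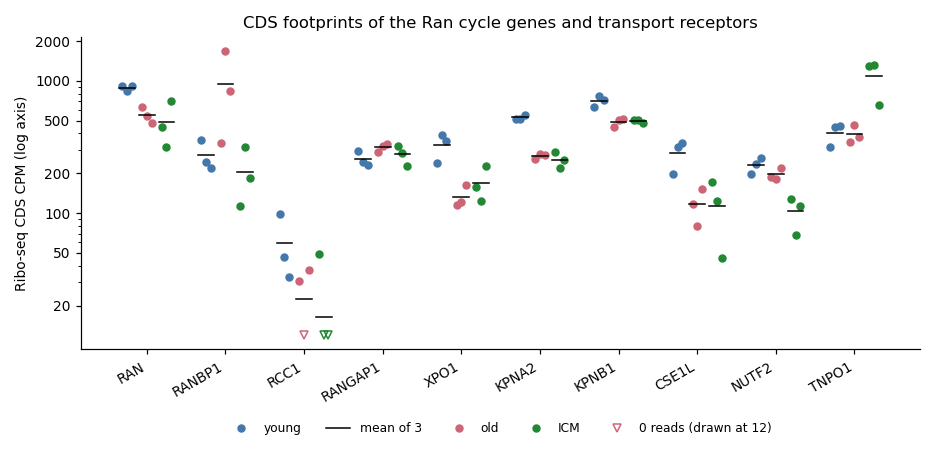
Ribo-seq CDS CPM on a log axis for the 10 genes in the 9 Ribo-seq libraries, with points for replicates, a line for the mean of 3, and open triangles for libraries with 0 reads. RANBP1 spreads from 338 to 1670 CPM in the old libraries, whereas KPNA2 keeps within 256 to 282.

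Footprints of most receptors fell in both arrested states, and those of TNPO1 rose in ICM. In ICM against young, 6 of the 8 genes past the filter fell (12.9% of all genes) and TNPO1 rose (13.7%), with a median log2 change of -0.98 against -0.00 over all genes. In old against young, 5 of the 8 fell (17.0%) and none rose (19.3% of all genes did), with a median of -0.62 against 0.02. Between ICM and old only TNPO1 was called, as higher (5.79% of all genes), and none was lower (7.62%). Without the 3 lysates described above the counts were 7, 5 and 3, and shares over all genes are not given for this setting. The genes added between ICM and old were NUTF2 and RAN, both lower in ICM (edgeR adjusted p = 0.0388 and 0.05). RAN thus stood at the threshold.

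RAN footprints were 911, 837 and 921 CPM in young, 634, 543 and 482 in old and 448, 314 and 708 in ICM. The ICM libraries, with 23 to 91 reads, spread most. The log2 change was -0.94 in ICM (SE 0.22, edgeR adjusted p = 0.00147) and -0.66 in old (SE 0.19, adjusted p = 0.00603), and the latter was not called without young replicate 3 or without old replicate 3 (adjusted p = 0.0689 and 0.0786).

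RCC1 had 5, 29 and 52 reads in young, 43, 0 and 18 in old, and 10, 0 and 0 in ICM. A count of 0 allows up to 3 reads, that is 60.4 CPM in old replicate 2 and 40.9 and 68.5 CPM in ICM replicates 2 and 3. These limits lie within the range of the young values, 99.0, 46.3 and 33.1 CPM, so that the fall in RCC1 mRNA could not be followed in footprints at this depth. RANGAP1 footprints overlapped in all comparisons, at 297, 243 and 232 CPM in young, 291, 322 and 335 in old and 320, 286 and 228 in ICM. Their log2 changes were 0.28 in ICM (SE 0.24, edgeR adjusted p = 0.405) and 0.36 in old (SE 0.19, adjusted p = 0.135).

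Footprints of both exportins were lower in the arrested states. XPO1 was at 238, 392 and 350 CPM in young, 116, 121 and 162 in old and 158, 123 and 228 in ICM. Its log2 change was -1.15 in ICM (SE 0.27, edgeR adjusted p = 0.00163) and -1.42 in old (SE 0.21, adjusted p = 1.89e-06). CSE1L was at 198, 318 and 337 CPM in young, 118, 80.5 and 152 in old and 172, 123 and 45.7 in ICM, where the lowest value rests on 2 reads. The log2 changes were -1.18 in ICM (SE 0.29, adjusted p = 0.00229) and -1.30 in old (SE 0.21, adjusted p = 1.07e-05). Without ICM replicate 1 the change in ICM was -1.87 (adjusted p = 0.00165).

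Both parts of the classical import pair had fewer footprints in the arrested states. KPNA2 was at 515, 516 and 556 CPM in young, 256, 282 and 275 in old and 291, 218 and 251 in ICM. Both arrested states stood well under young, lower by folds of 2.01 in old and 2.02 in ICM. The log2 changes were -1.02 in ICM (SE 0.23, edgeR adjusted p = 0.000808) and -1.01 in old (SE 0.19, adjusted p = 5.74e-05). KPNB1 was at 634, 770 and 719 CPM in young, 447, 503 and 517 in old and 503, 505 and 480 in ICM. No arrested library reached a young one, with log2 changes of -0.54 in ICM (SE 0.20, adjusted p = 0.0394) and -0.59 in old (SE 0.17, adjusted p = 0.00803). These KPNB1 calls were the ones most often lost under alternative settings, and with the replicate number as a block the adjusted p was 0.129 in ICM and 0.0695 in old. Without young replicate 2 they were 0.142 and 0.103, and without young replicate 3 0.104 and 0.069. Other single lysates whose omission ended the call were ICM replicates 1 and 2 in ICM (adjusted p = 0.105 and 0.0722) and old replicate 1 in old (0.0994). In ICM the KPNB1 call was also lost with DESeq2 (adjusted p = 0.0895) and in a fit of the compared groups alone (0.0641). Including UTR reads ended it in ICM as well (adjusted p = 0.0613). With no filter on low counts the call was lost in both states (adjusted p = 0.057 in ICM and 0.0878 in old).

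NUTF2 footprints were 198, 237 and 260 CPM in young, 189, 181 and 218 in old and 128, 68.2 and 114 in ICM, where 2 of the libraries held 5 reads each. The ICM libraries lay below all others. Its log2 change was -1.14 in ICM against young (SE 0.29, edgeR adjusted p = 0.00322), and in old against young -0.30 (SE 0.19, adjusted p = 0.224). Against old it was -0.84 (SE 0.30, adjusted p = 0.0562), and this was called without old replicate 2 or ICM replicate 3 (adjusted p = 0.0477 and 0.0394). TNPO1 footprints were 317, 449 and 454 CPM in young, 342, 463 and 376 in old and 1306, 1310 and 662 in ICM. Every ICM library exceeded every young and old one, with a log2 change of 1.40 against young (SE 0.21, adjusted p = 2.67e-06) and 1.64 against old (SE 0.21, adjusted p = 3.07e-07).

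Translational efficiency, the footprint level relative to the mRNA level of the same lysate, was tested as an interaction of assay and condition. None of the 8 genes was called in edgeR in any comparison, none had an unadjusted p under 0.05, and none was called with DESeq2. Of all 4618 genes tested, 2.45% were called between ICM and young, 1.45% between old and young and 0.260% between ICM and old. The 8 log2 changes ran from -0.54 to 0.43 in ICM against young and from -0.45 to 0.33 in old against young. For KPNA2, footprint CPM per mRNA CPM was 2.16, 2.13 and 2.26 in young, 2.00, 1.96 and 1.99 in old and 2.57, 1.99 and 2.35 in ICM. Its efficiency differed between old and young by -0.08, with an interval of 2 SE on either side from -0.46 to 0.30. TNPO1 stood at 1.45, 1.97 and 1.77 in young, 1.54, 2.02 and 1.55 in old and 1.82, 1.91 and 0.942 in ICM, and its efficiency differed between ICM and young by -0.16 (interval -0.57 to 0.26).

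RANBP1 is described through the reads behind its high ratio in old cells. Its CDS footprints were 357, 245 and 220 CPM in young, 338, 1670 and 833 in old, and 113, 314 and 183 in ICM. Old replicates 2 and 3 were high, and old replicate 1 lay within the range of young. Relative to mRNA CPM, footprints were at 2.36, 1.83 and 1.63 in young, 3.89, 18 and 10.4 in old and 2.03, 5.66 and 3.37 in ICM. The fitted log2 change of RANBP1 footprints was 1.64 (SE 0.32) in old against young, and that of its translational efficiency was 2.25 (SE 0.32).

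A small nucleolar RNA gene, SNORA77B in the tables and in RefSeq and SNORA77 in GENCODE, lies inside RANBP1. In GRCh37 (GENCODE v44, lifted over) RANBP1 occupies chr22:20103461-20114878 on the + strand, and the snoRNA chr22:20113925-20114049 on the same strand. Of the 13 annotated RANBP1 transcripts, 3 have an exon that covers all 125 bases of the snoRNA, and in 1 of these, RANBP1-207, the exon chr22:20113826-20114150 is annotated as coding. The snoRNA has a close relative, SNORA77, on chr1:203698709-203698833, so both are printed below, with capitals where the copies differ.
SNORA77B: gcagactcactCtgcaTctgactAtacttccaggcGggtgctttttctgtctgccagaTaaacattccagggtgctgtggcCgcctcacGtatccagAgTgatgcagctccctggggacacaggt
SNORA77: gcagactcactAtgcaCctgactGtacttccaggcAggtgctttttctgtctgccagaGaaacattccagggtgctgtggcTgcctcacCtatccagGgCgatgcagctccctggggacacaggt

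The copies agree at 116 of 125 positions (92.8%), and their longest shared run is 25 bases. H/ACA snoRNAs such as these guide pseudouridylation of other RNAs and are not translated.

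Reads of SNORA77B in the Ribo-seq libraries numbered 9.17, 9.67 and 9.67 in young, 338, 76.2 and 362 in old and 6.33, 5 and 0.667 in ICM. As a share of all Ribo-seq reads this was 57.9, 11.9 and 5 in each 1000000 in young, 157, 209 and 339 in old and 24.8, 49.7 and 11.6 in ICM, so that every old library lay above every other. SNORA77 was likewise higher in old, with 499, 84.7 and 393 reads in old and at most 23.7 in any other library. The snoRNA genes as a class did not stand out in old, at 0.754% to 1.32% of reads against 0.503% to 3.72% in young and 0.489% to 0.870% in ICM. In mRNA-seq, SNORA77B had between 0 and 1.5 reads per library.

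**Figure D3:**
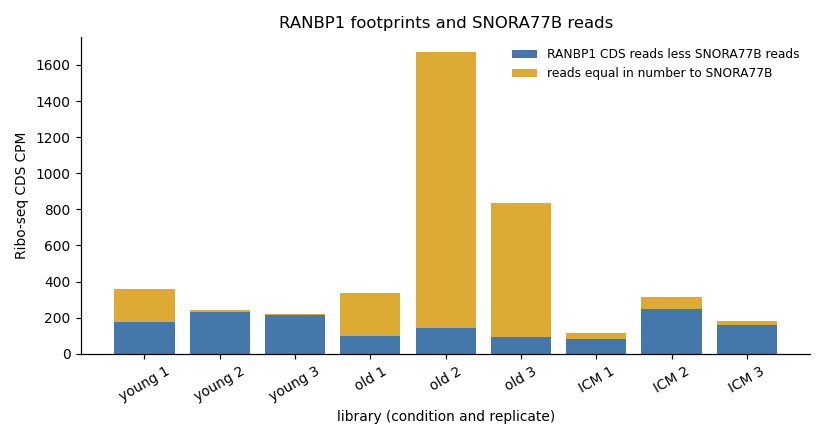
Ribo-seq CDS CPM of RANBP1 in each of the 9 libraries, split into a part equal in number to the SNORA77B reads of that library and the rest. The rest lies between 83.8 and 246 CPM in all 9 libraries, and in the old libraries, at 92.4 to 141 CPM, it is lower than in the young ones.

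The RANBP1 CDS reads of each library tracked this count. RANBP1 had 18.17, 152.7 and 344.7 CDS reads in young, 476, 83.17 and 406.5 in old and 23.33, 23.0 and 7.667 in ICM. In 7 of the 9 libraries this was not a whole number, yet RANBP1 less SNORA77B was whole, within 0.001, in 9 of 9: 9, 143 and 335 in young, 138, 7 and 45 in old, and 17, 18 and 7 in ICM. Among 18351 other entries with Ribo-seq reads, a gene's CDS column or its summed non-coding columns, SNORA77B alone had the same fractional part as RANBP1 in all 9 libraries, within 0.002. The SNORA77B count equalled 71.0%, 91.6% and 88.9% of the RANBP1 reads in old, 50.5%, 6.33% and 2.8% in young, and 27.1%, 21.7% and 8.70% in ICM. The tables hold no read positions, so where within RANBP1 these reads lie was not tested.

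With the SNORA77B count taken from RANBP1, a calculation added after the data were seen, RANBP1 footprints were 178, 229 and 213 CPM in young, 98.1, 141 and 92.4 in old, and 83.8, 246 and 160 in ICM. Old then lay below young without overlap, although old replicate 2 rests on 7 reads. The log2 change in old against young went from 1.64 to -1.14 (SE 0.23), and that of translational efficiency from 2.25 to -0.40 (SE 0.25). In ICM against young the footprint change went from -0.44 (SE 0.44) to -0.67 (SE 0.31) and the efficiency change from 0.84 (SE 0.47) to 0.63 (SE 0.35). Between ICM and old, footprints went from -2.08 (SE 0.41) to 0.47 (SE 0.34), and efficiency from -1.41 (SE 0.43) to 1.03 (SE 0.37). Footprints per mRNA CPM became 1.18, 1.71 and 1.58 in young, 1.13, 1.52 and 1.15 in old, and 1.5, 4.43 and 2.95 in ICM. The mRNA values were unchanged to 2 decimals. RANBP1 also shares 393 exon bases with TRMT2A on the opposite strand, and whether counting used strand was not stated. The same limit holds for 4 other genes with opposite-strand exon overlaps. These were XPO1 (690 bases with USP34-DT and 37 with another non-coding gene), KPNB1 (267 with a non-coding gene), TNPO1 (254 with TNPO1-DT) and NUTF2 (166 with CENPT). The part of such overlaps in the values was not tested.

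**Figure D4:**
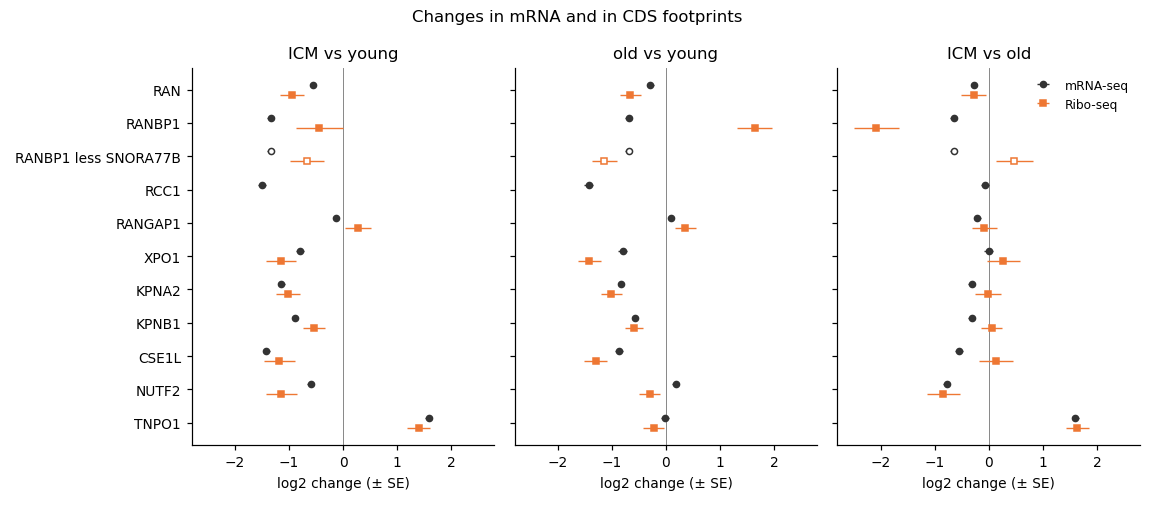
Log2 changes with SE of mRNA (circles) and CDS footprints (squares) for the 10 genes in the 3 comparisons, with open symbols for RANBP1 less SNORA77B reads. RCC1 has no footprint value, and RANBP1 in old against young lies at 1.64 as deposited and at -1.14 without the SNORA77B count.

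The place of footprints along the transcripts was also recorded. Most footprints of these genes lay in the CDS. In RAN, KPNA2, KPNB1, CSE1L and XPO1 at most 0.685% of a condition's summed footprints lay in the 3′ UTR. For TNPO1 in old cells, 48, 10 and 15 footprints lay in the 3′ UTR against 6, 2 and 4 in young and 1, 2 and 0 in ICM. Summed over libraries this was 9.59% of its footprints in old (exact binomial 95% interval 7.59% to 11.9%), 1.17% in young (0.606% to 2.03%) and 0.763% in ICM (0.158% to 2.21%). Per library the share was 9.06%, 30.3% and 7.58% in old, and 26.1%, 0.707% and 0.556% in young, so that young and old overlapped through young replicate 1, which had 23 TNPO1 footprints. Over all genes the 3′ UTR share was 3.51%, 14.8% and 4.90% in old and 12.4%, 1.94% and 1.40% in young, and its part in the TNPO1 shares was not tested. NUTF2 had 8.82% in old (6.31% to 11.9%), 2.96% in young (1.76% to 4.63%) and 2.63% in ICM (0.0666% to 13.8%). RANGAP1 had 4.44% in old (2.97% to 6.36%), 1.4% in young (0.607% to 2.74%) and 0% in ICM (0% to 3.62%). These intervals cover counting error only. Young and old libraries overlapped in both genes. Per library, NUTF2 had 8.28%, 35.7% and 6.96% in old. In young replicate 1 it had 3 of 15 footprints in the 3′ UTR, and in young replicates 2 and 3 4.94% and 1.62%. RANGAP1 had 4.76%, 23.8% and 1.19% in old and 11.1%, 0.617% and 1.28% in young.

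**Figure D5:**
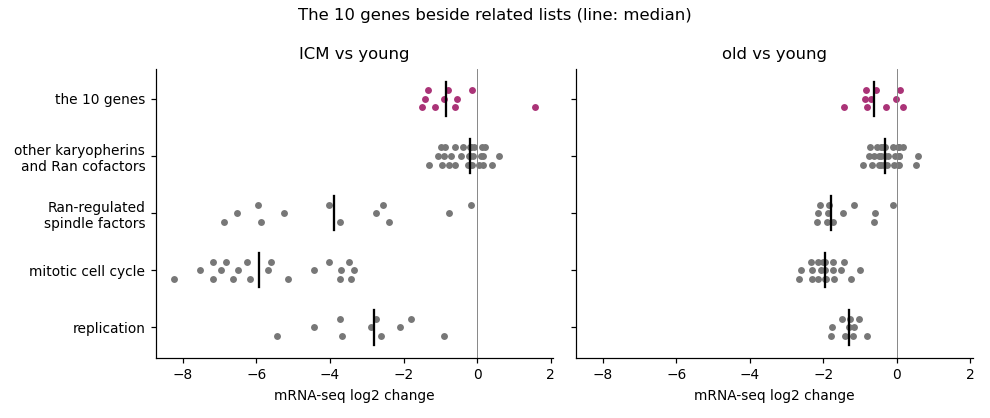
Log2 changes of mRNA in ICM and in old against young for the 10 genes, RANBP1 included, and 4 related lists, with a line at each median. The mitotic genes have medians of -5.93 in ICM and -1.94 in old.

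The rest of the transport system was examined as a list. Of 29 other karyopherins and Ran cofactors, 16 fell and 3 rose in ICM against young (36.1% and 34.9% of all genes), with a median log2 change of -0.20, and 16 fell and 3 rose in old (33.7% and 32.4% of all genes), with a median of -0.32. The largest falls in ICM were XPO5 (56.2 ± 2.20 CPM in young to 22.8 ± 1.31 in ICM, log2 change -1.30, edgeR adjusted p = 9.85e-13) and IPO4, an importin (69.2 ± 1.11 to 33.1 ± 1.20, -1.06, adjusted p = 3.18e-11). In old they were XPOT, the tRNA exporter (256 ± 3.72 to 136 ± 7.00, -0.91, adjusted p = 1.45e-11), and IPO9 (97.6 ± 0.931 to 58.1 ± 2.19, -0.75, adjusted p = 5.33e-10). The largest rises were IPO13 (0.59 in ICM, adjusted p = 9.85e-08, and 0.51 in old, adjusted p = 1.51e-06), RANBP10 in ICM (0.41, adjusted p = 0.000244) and RANBP6 in old (0.58, adjusted p = 8.1e-06). None rose by as much as TNPO1. In footprints, 2 of 21 fell in ICM (12.9% of all genes) and 8 of 21 in old (17.0%), and none rose (13.7% and 19.3% of all genes did).

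Cell division genes fell as well, with larger median changes, where 36.1% of all genes were called lower in ICM and 33.7% in old. Of 12 spindle factors that Ran regulates through importins or that act with them, 11 fell in ICM (median log2 change -3.89) and 11 in old (-1.79). TPX2 stands in this list and among the mitotic genes. DLGAP5, a microtubule-binding spindle protein, changed by -6.89 (log2) in ICM and by -2.15 in old, and NEK2, a centrosomal kinase, by -6.53 and -2.17. All 20 mitotic genes fell in both states, with medians of -5.93 in ICM and -1.94 in old. Their summed level was 1363 to 1386 CPM in the young libraries, 326 to 377 in old and 45.9 to 49.2 in ICM. The old cultures thus kept more mitotic mRNA than the ICM ones. KIF20A, a mitotic kinesin, went from 79.3 ± 3.02 CPM in young to 12.9 ± 1.61 in old and 0.252 ± 0.149 in ICM (SD, n = 3). MKI67, a proliferation marker, had a log2 change of -7.54 in ICM, and CENPF, a kinetochore protein gene, one of -2.67 in old. All 10 replication genes also fell, with medians of -2.81 in ICM and -1.29 in old, led in ICM by RRM2 (-5.44), a ribonucleotide reductase subunit, and MCM5 (-4.43), and in old by the helicase subunits MCM7 (-1.78) and MCM2 (-1.77). In mRNA, ICM was also called lower than old for RAN, RANGAP1, KPNA2, KPNB1, CSE1L and NUTF2, but not for RCC1 or XPO1. In footprints none of these was called. Their log2 differences between ICM and old were -0.84 for NUTF2 (SE 0.30, edgeR adjusted p = 0.0562) and -0.28 for RAN (SE 0.23). RANGAP1 stood at -0.08 (SE 0.23), KPNA2 at -0.01 (SE 0.24), KPNB1 at 0.05 (SE 0.20) and CSE1L at 0.13 (SE 0.32). Without the 3 lysates described above, NUTF2 (-0.96, SE 0.31, edgeR adjusted p = 0.0388) and RAN (-0.60, SE 0.20, adjusted p = 0.05) were called lower in ICM, RAN only at the threshold. With SEs of this size, the lack of a call does not show equal footprints. The part of these division genes in the values of the Ran genes was not tested.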

How the data were processed

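The authors deposited tables of estimated counts of reads per gene symbol, not scaled to depth, with separate columns for the UTRs, the CDS and non-coding classes. The submitters' processing notes name STAR 2.6.0c, featureCounts, DESeq2, deepTools and GRCh37 without saying which made these tables, and the strand setting and treatment of multiply matching reads were not given in the sources used here. Per the study's methods, CDS footprints were counted in Ribo-seq and whole transcripts in mRNA-seq.

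Groups and replicate numbers came from the sample titles. Estimated counts were rounded to whole numbers and fitted by quasi-likelihood in edgeR 4.0.16 (R 4.3.3) after filterByExpr and TMM scaling, using the 9 libraries of an assay together. Translational efficiency was the assay by condition interaction over 18 libraries, blocked by lysate, because the methods state that both libraries of a replicate came from 1 lysate. Their deviations from group means correlated with r between -0.0711 and 0.119. The study's own tool, anota2seq, was not used, and its threshold of 0.15 was tried as an alternative. SEs were derived from each change and its F value. P-values measure the spread between separately grown cultures.

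The members and the gene lists were chosen with earlier results of these data known. Besides the 10 genes, the text names from each list the 2 largest called rises and falls in mRNA-seq with a mean of at least 5 CPM, and the 3 nearest patterns to RANBP1 and KPNA2. Coordinates of genes are from GENCODE v44 on GRCh37, and promoters from RefSeq on GRCh38.p14. Scripts were tested on simulated data. Alternatives were DESeq2 1.42.0, RLE scaling, other filters and read columns, the compared groups alone, replicate blocks, and leaving out lysates. SNORA77B was examined after the data were seen.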

Additional observations from a re-analysis of the deposited data

How the results depend on the processing

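Over all alternatives and comparisons, 1051 of 1125 values of single members other than RANBP1 kept their direction and side of the threshold, 18 lost the call, 13 gained it, and 43 changed sign without a call on either side. Of the 18, 14 were KPNB1 footprints, and the other genes were NUTF2 and RAN. Counts of called members in Ribo-seq between ICM and old, where TNPO1 was the only one, became 2 with 5′ UTR and 3′ UTR reads included or at an adjusted p under 0.15, and 3 without young replicate 1, old replicate 2 and ICM replicate 3. With single lysates left out they ran from 1 to 2, and between old and young from 3 (without young replicate 3) to 5. For translational efficiency in old against young, with 0 members called, the fit with no replicate block called 2 (XPO1 at -0.61 and NUTF2 at -0.45, both lower in old). The fit of the 2 groups alone, where RCC1 also passed the filter, called RCC1 only, so 1. RCC1 was higher in old by 1.06 (SE 0.32, edgeR adjusted p = 0.0449), with 0 RCC1 footprint reads in old replicate 2. It was also fitted, and not called, with no filter (1.05, adjusted p = 0.608) and without young replicate 1 (1.09, adjusted p = 0.287). Nor was it called without old replicate 2 (1.19, adjusted p = 0.223) or without the 3 lysates together (1.19, adjusted p = 0.144). The remaining counts stayed within 1.5 times. Same-numbered cultures of different conditions were treated as unpaired. Their deviations correlated with r between -0.0928 and 0.129 in mRNA-seq and between 0.0021 and 0.0387 in Ribo-seq. The 2 libraries of 1 lysate, linked by design, gave r between -0.0711 and 0.119. The check therefore cannot show whether cultures were paired by number. A replicate block left the mRNA-seq counts as they were. In Ribo-seq it gave 6 in place of 7 (ICM against young) and 4 in place of 5 (old against young). Shares over all genes are not given for these alternative settings, so their counts alone do not show an excess of called members.

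The 43 sign changes fell in 14 results, none of them called. TNPO1 mRNA in old against young ran from -0.06 to 0.05 with single lysates left out. Footprint changes between ICM and old became 0.04 for RANGAP1 and 0.10 for KPNA2 at a mean of 50 counts or more, -0.14 for KPNB1 and -0.08 for CSE1L with no filter, and 0.04 for KPNA2 with UTR reads or 0.03 in the 2 groups alone. Without the 3 lysates together KPNB1 was at -0.04, and with single lysates left out KPNA2 ran from -0.32 to 0.06, KPNB1 from -0.08 to 0.10 and CSE1L from -0.57 to 0.28. Efficiency in ICM against young was -0.13 for KPNA2 with no filter, and with single lysates left out it ran from -0.16 to 0.14 for KPNA2 and from -0.50 to 0.36 for CSE1L. Efficiency of KPNB1 in old against young was -0.02 with RLE scaling or DESeq2, -0.03 at a mean of 50 counts or in the 2 groups alone, -0.08 without the 3 lysates, and from -0.11 to 0.07 without single lysates. Efficiency between ICM and old was -0.14 for RANGAP1, -0.08 for XPO1 and -0.03 for KPNA2 with no filter. For TNPO1 it was 0.02 at a mean of 50 counts and 0.05 with no replicate block, and without the 3 lysates 0.16, against -0.05 for XPO1. With single lysates left out it ran from -0.35 to 0.05 for RAN, -0.19 to 0.16 for RANGAP1, -0.04 to 0.35 for XPO1, -0.10 to 0.21 for KPNA2, -0.22 to 0.75 for CSE1L and -0.30 to 0.13 for TNPO1.

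RANBP1 less SNORA77B reads turned its direction in 4 results: footprints in old against young (-1.14) and in ICM against old (0.47), and translational efficiency in old against young (-0.40) and in ICM against old (1.03). With single lysates left out, RANBP1 in old against young ran from 1.29 to 2.17 in footprints and from 1.91 to 2.89 in efficiency. As a mean of libraries in place of a sum, the 3′ UTR share of TNPO1 footprints was 9.12% in young and 15.6% in old. The cause of these changes was not tested.

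Depth limits the footprint results, with as few as 2 reads of CSE1L in ICM replicate 3.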
